A study of Mus musculus with 12 samples.

Results

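Trimebutine maleate and alprostadil were compared directly in 6 arrays of skin-derived precursor (SKP) spheres from wounded mouse skin, 3 arrays with each drug, out of 12 arrays in the study. The arrays were chosen by the sample titles alone. The mice were 9 months old, their strain is written CD57/Bl6 in the labels, and every group was grown as secondary spheres with FGF2 (40 ng/ml), EGF (20 ng/ml) and B27 (2%). The groups were wounded skin with trimebutine maleate, wounded skin with alprostadil, wounded skin with vehicle, and uninjured skin with vehicle, each with 3 biological replicates. By its title the study screened dermal stem cells for drugs that promote the repair of skin. Drug doses, treatment times, the skin site and the number of mice behind a sample are not stated in the labels, and the cells were measured after growth as spheres, not in the skin itself.

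SKPs are dermal cells that grow as floating spheres, can make dermis, and are related to the mesenchymal cells at the base of the hair follicle. Trimebutine is a drug for gut motility that acts on opioid receptors and on calcium and potassium channels of smooth muscle. Alprostadil is prostaglandin E1, which binds the E-type prostaglandin receptors and the prostacyclin receptor, several of which raise cyclic AMP. The comparison asks which transcripts differ between spheres from wounded skin treated with trimebutine and spheres from wounded skin treated with alprostadil.

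No gene passed the test between the drugs. Of 13153 genes tested with limma, 0 (0%) had an adjusted p at or under 0.05, and the smallest adjusted p was 0.752. Without adjustment 581 genes (4.42%) had a p under 0.05, of which 329 (2.5% of the genes tested) were higher with trimebutine and 252 (1.92%) were lower. The 3 trimebutine arrays lay wholly above the 3 alprostadil arrays for 685 genes (5.21%) and wholly below for 793 (6.03%). The median difference, trimebutine minus alprostadil, was -0.01 log2 units. In 99 genes the difference was above 1 and in 116 below -1. The median standard error (SE) of a difference was 0.135 log2 units, with a median half-width of 0.300 for the 95% interval. For 4.59% of the genes the half-width was over 1, so a 2-fold difference in either direction lay within reach of the error there. Values are log2 expression levels of the deposited table throughout, and replicates are given in the order 1, 2 and 3. Levels of different genes come from different probes and were not compared with each other.

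**Figure D1:**
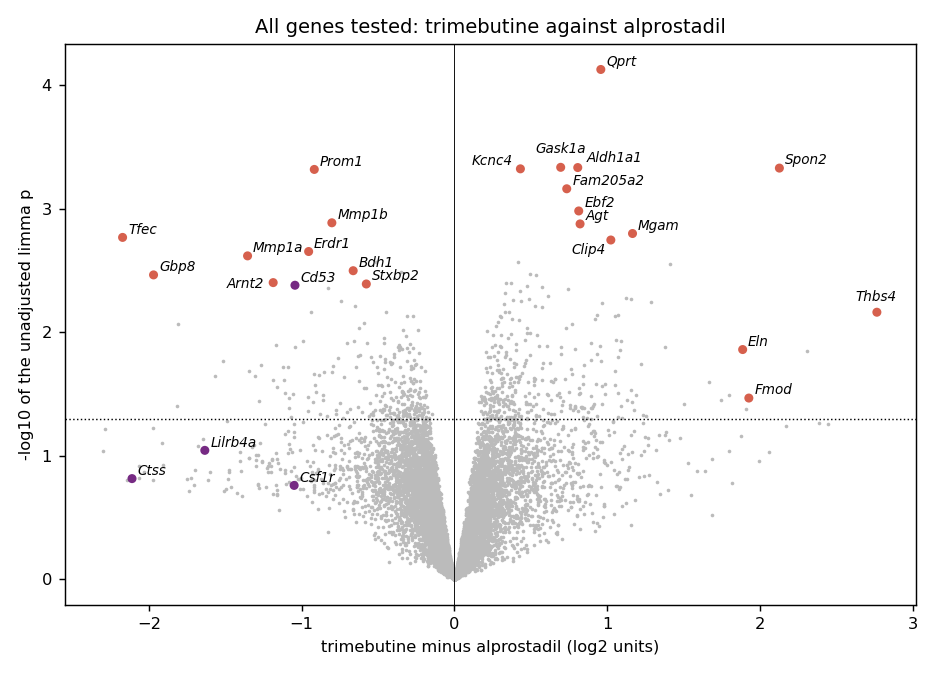
Each point is 1 of 13153 genes. The x axis is the difference in log2 units, trimebutine minus alprostadil, the y axis is -log10 of the unadjusted limma p, and the dotted line marks a p of 0.05. Genes with the smallest p and the matrix genes Thbs4, Eln and Fmod are in red and macrophage markers, Cd53 among them, in purple. Thbs4 stands farthest to the right at 2.76, and no gene passed after adjustment.

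The alprostadil arrays differed more among themselves than the trimebutine arrays did. The median SD of a gene over 3 arrays was 0.124 with trimebutine and 0.179 with alprostadil, beside 0.148 in wound vehicle and 0.138 in uninjured vehicle. Trimebutine replicates 2 and 3 correlated at 0.993 across genes, and 0.190% of the genes differed by more than 1 log2 unit between them. Alprostadil replicates 1 and 3 correlated at 0.936, with 6.57% of the genes differing by more than 1. Alprostadil replicate 3 was closer to the trimebutine arrays than to the other arrays of its own group. It correlated at 0.977, 0.989 and 0.986 with trimebutine replicates 1, 2 and 3, against 0.936 and 0.960 with alprostadil replicates 1 and 2. These correlations are across genes, which are not independent.

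The cells of both drug groups expressed dermal mesenchymal genes. Fn1 (fibronectin) stood at 13.91, 13.92 and 13.90 with trimebutine and at 13.83, 13.94 and 13.85 with alprostadil. Pdgfra, the PDGF receptor of dermal fibroblasts, stood at 12.31, 12.53 and 12.67 with trimebutine and at 11.19, 11.43 and 12.52 with alprostadil. Nes (nestin), a marker used for SKPs, reached 7.12 with trimebutine and 6.92 with alprostadil, and Sox2, another SKP marker, stayed at or below 5.04 on these 6 arrays and was too dim to test.

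Macrophage genes stood apart on alprostadil replicate 1. Of 21 macrophage markers tested, 20 had their highest value of the 12 arrays there, the exception being the Fc receptor gene Fcgr2b. On that array Ctss (cathepsin S) read 12.97, against 8.66 or less on the other 11. Csf1r, through which CSF1 keeps macrophages alive, read 10.12, against 6.95 or less. The mean of the centred markers was -0.04, -0.72 and -0.81 with trimebutine and 2.94, -0.95 and -0.13 with alprostadil. The median difference of the 21 markers was -1.05 log2 units over all arrays, -0.04 without alprostadil replicate 1, and -1.71 and -1.58 without replicates 2 and 3. Adgre1, a macrophage surface receptor too dim elsewhere to be tested, read 11.12 on that array and between 5.10 and 7.12 on the others. In bulk RNA, more cells of a type and more RNA per cell cannot be told apart.

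Qprt, which makes a precursor of NAD from quinolinate, had the smallest p of all genes, 7.44e-05 before adjustment. It stood at 9.51, 9.14 and 9.46 with trimebutine and at 8.18, 8.36 and 8.71 with alprostadil, so the groups did not overlap. The difference was 0.96 ± 0.15 (SE), with a 95% interval of 0.62 to 1.29, and its limma adjusted p was 0.752. With wound vehicle Qprt read 8.50, 8.40 and 8.76, near the alprostadil arrays, and in uninjured vehicle 8.27, 8.22 and 8.16. Against wound vehicle the difference was 0.82 ± 0.15 for trimebutine and -0.14 ± 0.15 for alprostadil, and these contrasts share the vehicle arrays.

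Spon2, a secreted matrix protein of the spondin family, had the largest difference among the 10 genes of smallest p that were higher with trimebutine. These 10, and the 10 lower with trimebutine, were drawn only from genes whose drug groups did not overlap. Its levels were 9.54, 9.17 and 9.84 with trimebutine, 6.92, 7.81 and 7.44 with alprostadil, and 7.18, 7.87 and 9.15 with wound vehicle. Every trimebutine array lay at least 1 log2 unit above every alprostadil array, and the difference was 2.13 ± 0.42, or 4.37-fold. Its unadjusted p was 0.000468 and its adjusted p in limma 0.752. Aldh1a1, which oxidises retinaldehyde to retinoic acid, read 7.87, 8.08 and 7.65 with trimebutine and 6.83, 7.01 and 7.36 with alprostadil, a difference of 0.81 ± 0.16. Agt, the angiotensin precursor, read 8.08, 7.53 and 7.54 with trimebutine and 6.78, 6.98 and 6.92 with alprostadil, a difference of 0.82 ± 0.19. For Aldh1a1 and Agt, too, the wound vehicle means lay near alprostadil: the alprostadil minus vehicle difference was -0.16 ± 0.16 for Aldh1a1 and -0.09 ± 0.19 for Agt. For Spon2 it was -0.68 ± 0.42, beside 1.45 ± 0.42 for trimebutine minus vehicle. The other genes of this set were Gask1a, a kinase of the Golgi, Kcnc4, a voltage-gated potassium channel, Fam205a2, the transcription factor Ebf2, the glucosidase Mgam and the microtubule-binding Clip4. Their differences lay between 0.43 (Kcnc4) and 1.17 (Mgam), and none passed after adjustment. Wound vehicle did not lie near alprostadil in all of them. Against vehicle, Kcnc4 differed by -0.32 ± 0.09 with alprostadil and by 0.11 ± 0.09 with trimebutine. Ebf2 differed by -0.40 ± 0.18 with alprostadil and by 0.42 ± 0.18 with trimebutine.

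**Figure D2:**
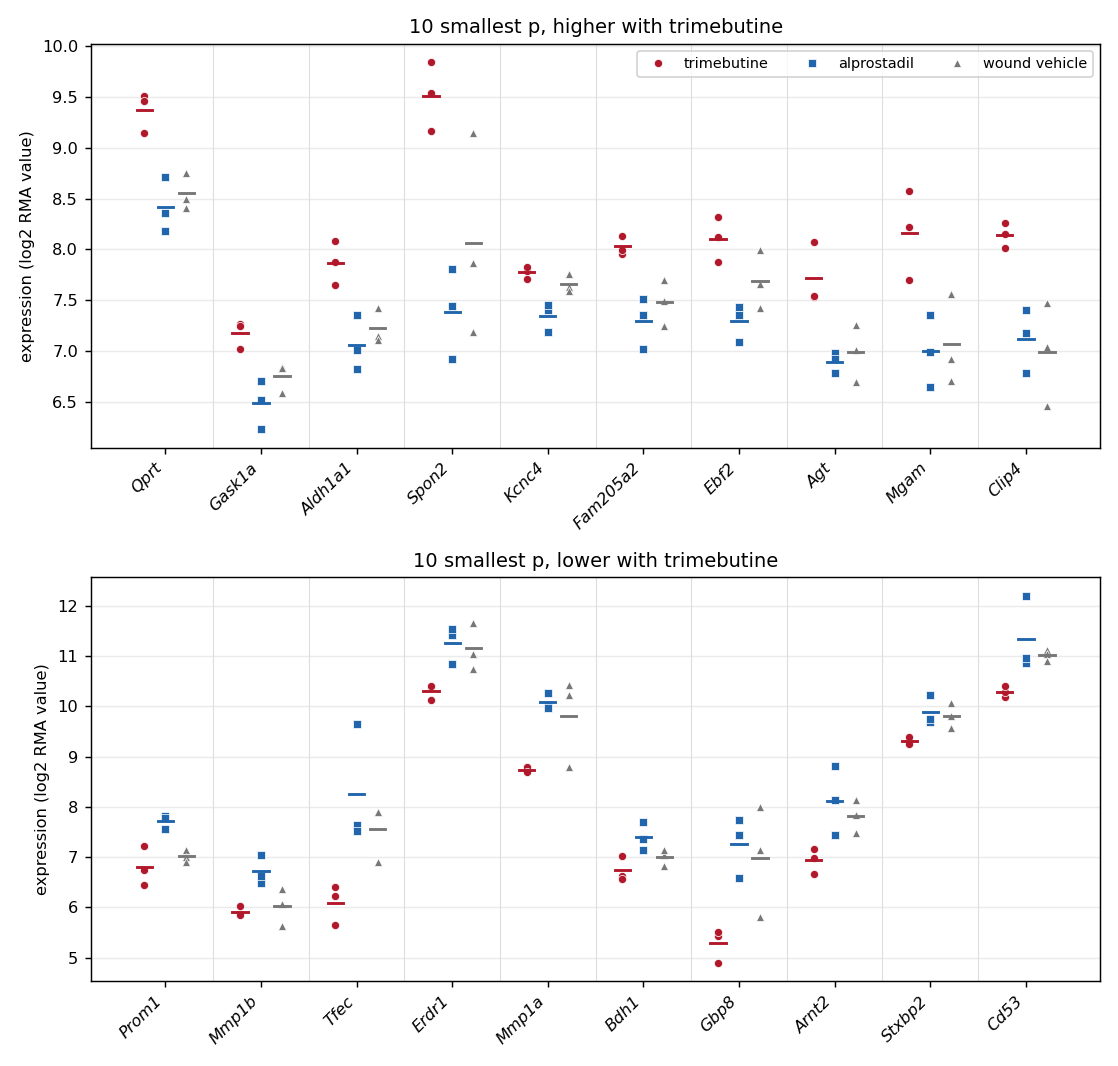
Log2 expression on each array for the 10 genes of smallest p that were higher with trimebutine (upper panel) and the 10 that were lower (lower panel). Both sets were drawn only from genes without overlap of the drug groups. Dots are trimebutine, squares alprostadil and triangles wound vehicle arrays, and bars are group means of 3 arrays. Spon2 read 9.17 to 9.84 with trimebutine and 6.92 to 7.81 with alprostadil, and Mmp1a read 8.69 to 8.79 with trimebutine and 9.97 to 10.26 with alprostadil.

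Mmp1a and Mmp1b, mouse genes of the interstitial collagenase family, were both lower with trimebutine and lie next to each other in the genome. Their promoters are shown because the pair moved together and because collagenase promoters are a textbook case of the AP-1 site, TGAGTCA, bound by Fos and Jun proteins. The RefSeq sequences (GRCm38.p6) run from 250 bases before to 50 bases after the annotated start, for Mmp1a at chr9:7463891-7464190 on the plus strand and for Mmp1b at chr9:7387977-7388276 on the minus strand. The capitals mark the AP-1 heptamer.
Mmp1a: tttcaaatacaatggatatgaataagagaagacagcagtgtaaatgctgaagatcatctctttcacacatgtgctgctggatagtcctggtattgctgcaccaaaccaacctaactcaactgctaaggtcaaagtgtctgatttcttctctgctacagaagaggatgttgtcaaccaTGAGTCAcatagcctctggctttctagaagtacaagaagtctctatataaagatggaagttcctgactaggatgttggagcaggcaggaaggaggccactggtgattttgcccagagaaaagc
Mmp1b: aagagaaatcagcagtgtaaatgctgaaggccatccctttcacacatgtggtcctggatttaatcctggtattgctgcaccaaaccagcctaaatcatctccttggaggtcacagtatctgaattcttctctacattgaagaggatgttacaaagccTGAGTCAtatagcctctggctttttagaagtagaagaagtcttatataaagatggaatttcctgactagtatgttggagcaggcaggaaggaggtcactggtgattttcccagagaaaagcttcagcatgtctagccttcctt
The heptamer was searched on both strands (its reverse complement is TGACTCA) and occurred once in each promoter, with its first base at position -73 from the start of Mmp1a and at -93 from that of Mmp1b. The promoter of Qprt was searched as well and held 0 matches, and Spon2 had no promoter sequence to search. Of 32851 promoters in the table, 1709 (5.20%) held it, and a match is a description of the letters only.

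Mmp1a read 8.73, 8.79 and 8.69 with trimebutine, against 10.03, 9.97 and 10.26 with alprostadil. Both groups were tight and lay more than 1 log2 unit apart, but wound vehicle spanned that range at 10.42, 10.22 and 8.80. The difference was -1.35 ± 0.34, or 2.56-fold lower with trimebutine, with an adjusted p of 0.752 in limma. The adjusted p was 0.0204 in the fit without wound vehicle replicate 3, in which Mmp1a was the only gene to pass, since that array enters the shared spread. Mmp1b read 5.86, 6.03 and 5.86 with trimebutine, against 6.49, 6.62 and 7.05 with alprostadil. Its difference was -0.80 ± 0.18, and its wound vehicle values of 6.07, 6.36 and 5.63 lay nearer the trimebutine arrays. In uninjured vehicle both genes were higher than in either drug group, at 10.90 to 11.32 for Mmp1a and 7.73 to 7.84 for Mmp1b. The 2 genes are close paralogs, so their probe signals may not be fully separate.

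Prom1 (CD133), a membrane protein used as a marker of stem cells and of the dermal papilla, read 7.22, 6.74 and 6.45 with trimebutine and 7.82, 7.78 and 7.56 with alprostadil. The difference was -0.92 ± 0.18 with an adjusted p of 0.752 in limma, and here wound vehicle, at 7.15, 7.00 and 6.90, resembled trimebutine. Against wound vehicle Prom1 differed by -0.21 ± 0.18 with trimebutine and by 0.71 ± 0.18 with alprostadil, neither of which passed (adjusted p 0.668 and 0.998 in limma). Gbp8, an interferon-inducible GTPase of the guanylate-binding family, read 5.44, 5.51 and 4.90 with trimebutine and 7.44, 7.74 and 6.58 with alprostadil, a difference of -1.97 ± 0.52. The trimebutine values of Gbp8, of Mmp1b and of Tfec lay below the array medians (6.57 to 6.74), a range in which no detection call was available here, so the sizes of these differences are uncertain. The same limit holds for genes higher with trimebutine. The alprostadil values of Gask1a and Mylk lay below the medians of their arrays, as did those of Angpt1 and Cacna1g on replicates 1 and 2. Arnt2, a partner of PAS transcription factors, differed by -1.19 ± 0.32, and by -0.84 without alprostadil replicate 1. The remaining genes of this set, apart from Tfec and Cd53, were Erdr1, the ketone-body enzyme Bdh1 and the exocytosis protein Stxbp2, with differences of -0.95, -0.66 and -0.58. Without alprostadil replicate 1 these were -0.88, -0.51 and -0.41.

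Tfec and Cd53 likewise belonged to the 10 genes of smallest p that were lower with trimebutine. Tfec, a transcription factor known from mouse macrophages, read 6.41, 6.22 and 5.64 with trimebutine and 9.65, 7.63 and 7.51 with alprostadil. Its difference was -2.17 ± 0.52 with all arrays and -1.48 without alprostadil replicate 1, the array of high macrophage genes. Cd53, a tetraspanin of leukocytes, read 10.18, 10.28 and 10.41 with trimebutine and 12.20, 10.85 and 10.95 with alprostadil. Without alprostadil replicate 1 its difference was -0.61, in place of -1.04 ± 0.28. Both genes were drawn from those without overlap, so they stayed lower on every trimebutine array when that array was set aside. The part of macrophage RNA in these differences was not tested.

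Genes of the extracellular matrix were mostly higher with trimebutine, and none passed. Among 24 tested genes of elastic fibres and collagen cross-linking, 24 had a difference above 0, with a median of 0.43 log2 units, against 46.2% of all genes above 0 and a median of -0.01. Among 23 proteoglycan and matricellular genes 21 were above 0, with a median of 0.36, and among 18 collagen genes 15 were above 0, with a median of 0.53. Leaving out 1 array moved the median of the proteoglycan list over 0.24 (without alprostadil replicate 2) to 0.57 (without alprostadil replicate 3), and it was 0.23 without the 3 arrays of lowest array median. Unadjusted p-values under 0.05 occurred in 3, 5 and 1 of these genes, all higher with trimebutine, beside 2.5% of all genes tested. These genes share the pattern of the arrays, so they are not separate pieces of evidence.

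Thbs4, a thrombospondin of tendon and remodelling matrix, read 12.47, 11.90 and 12.82 with trimebutine, 10.24, 7.81 and 10.85 with alprostadil and 8.37, 8.02 and 10.39 with wound vehicle. Its difference of 2.76 ± 0.82, or 6.80-fold, was the largest of all genes tested, with a 95% interval of 0.94 to 4.59 and an adjusted p of 0.752 in limma. Without alprostadil replicate 2, which was the lowest array, it was 1.85, and it was 3.07 and 3.37 without replicates 1 and 3. Eln (elastin) read 8.99, 10.03 and 9.51 with trimebutine and 7.10, 6.86 and 8.91 with alprostadil, a difference of 1.89 ± 0.64. The trimebutine arrays were above all alprostadil arrays for both genes, but for Eln the highest alprostadil array, replicate 3, came close to the lowest trimebutine array.

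Fmod (fibromodulin), a proteoglycan that binds fibrillar collagen, read 9.42, 10.53 and 10.15 with trimebutine and 7.50, 7.86 and 8.97 with alprostadil, a difference of 1.93 ± 0.79. Mgp (matrix Gla protein), an inhibitor of calcification, differed by 1.67 ± 0.64, and Ccn2 (CTGF), a matricellular target of TGF-beta and YAP, by 1.22 ± 0.43. Lum (lumican) read 12.46, 12.26 and 12.41 with trimebutine and 11.07, 10.71 and 12.13 with alprostadil. Loxl1, which cross-links elastin, read 12.17, 12.23 and 12.47 with trimebutine and 11.00, 11.27 and 12.14 with alprostadil. In both genes the trimebutine arrays were close together while alprostadil replicate 3 stood near them and replicates 1 and 2 stood lower.

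The collagens showed the same split within alprostadil. Col1a1, a chain of type I collagen, read 13.09, 13.16 and 13.25 with trimebutine and 12.32, 12.22 and 13.19 with alprostadil, a difference of 0.59 ± 0.31 with a 95% interval of -0.10 to 1.28. Col15a1, a basement membrane-associated collagen, differed by 1.50 ± 0.63 and Col4a1, a basement membrane collagen, by 0.71 ± 0.33, both with overlapping groups. Not all collagens were higher with trimebutine: the difference reached -1.01 at the lower end of the list, and 2 of the 18 lay wholly below alprostadil and another 2 wholly above, where 6.03% and 5.21% of all genes did. The median of the list was 0.81 without alprostadil replicate 3 and 0.32 without replicate 2.

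**Figure D3:**
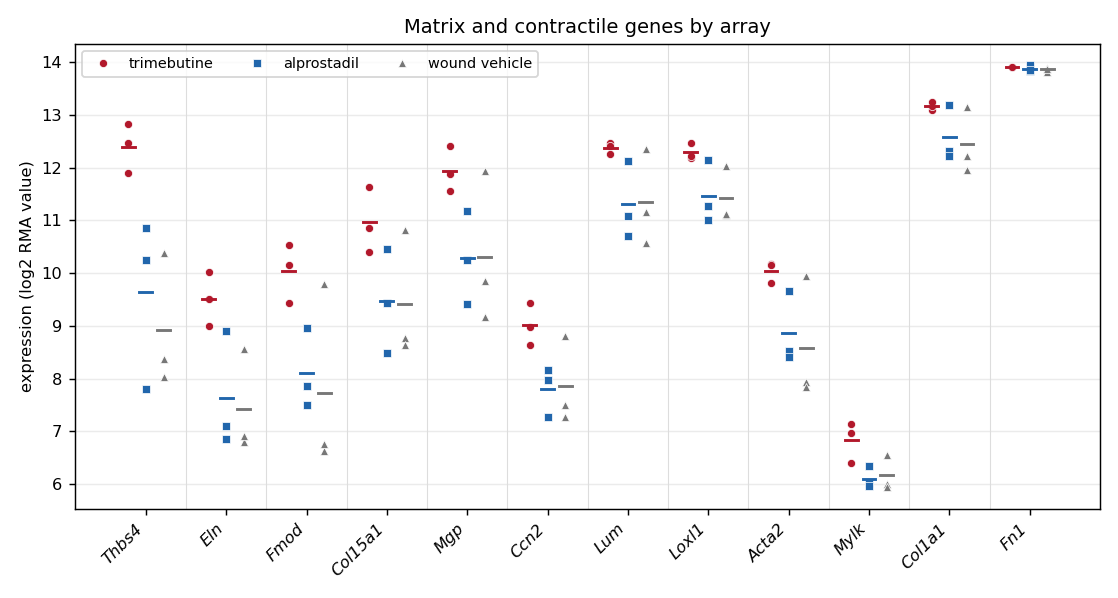
Log2 expression of 12 matrix and contractile genes on each trimebutine (dots), alprostadil (squares) and wound vehicle (triangles) array, with bars at the means of 3 arrays. In most of them 1 alprostadil array, replicate 3, and 1 vehicle array, replicate 3, stand near the trimebutine arrays, as in Col1a1, where alprostadil replicate 3 is at 13.19 and trimebutine at 13.09 to 13.25. Fn1 lies between 13.83 and 13.94 on all 6 drug arrays.

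Contractile genes, the mark of myofibroblasts, were also mostly higher with trimebutine. Of 16 tested, 13 had a difference above 0, 6 lay wholly above the alprostadil arrays (5.21% of all genes did), and the median was 0.28. Acta2 (smooth muscle actin) read 10.16, 9.81 and 10.14 with trimebutine, 8.53, 8.40 and 9.67 with alprostadil and 7.93, 7.84 and 9.95 with wound vehicle. Its difference of 1.18 ± 0.51 had an adjusted p of 0.752 in limma. Mylk, the kinase of myosin light chain, differed by 0.73 ± 0.23 and Myl9, a regulatory myosin light chain, by 0.32 ± 0.09, without overlap of the groups. The score of the list was 0.23, 0.22 and 0.24 with trimebutine and -0.21, -0.23 and 0.07 with alprostadil.

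Among 26 matrix proteases and inhibitors 19 were above 0 with a median of 0.16, and 4 had an unadjusted p under 0.05 in the lower direction (1.92% of all genes did). Mmp1a and Mmp1b are among the 4. Leaving out 1 array moved the median of this list over 0.13 (without alprostadil replicate 2) to 0.45 (without alprostadil replicate 3). Of 21 genes of TGF-beta signalling 13 were above 0, among them Nox4, an oxidase induced by TGF-beta, which read 9.86, 9.87 and 9.81 with trimebutine and 8.57, 8.56 and 9.65 with alprostadil. Its difference was 0.92 ± 0.28. Bmpr1a, a BMP receptor, differed by 0.28 ± 0.12 and Gdf10, a ligand of this family, by 1.15 ± 0.57. Of 22 genes of the BMP list, which mixes ligands, antagonists and targets, 17 were above 0. The median was 0.17 for the TGF-beta list, over 0.021 (without alprostadil replicate 2) to 0.30 (without alprostadil replicate 3), and 0.16 for the BMP list, over 0.094 (without alprostadil replicate 1) to 0.25 (without alprostadil replicate 3).

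Among 25 Wnt targets, receptors and antagonists 17 were above 0 with a median of 0.22. It ran over 0.096 (without alprostadil replicate 2) to 0.26 (without trimebutine replicate 1) when 1 array was left out. Because the list mixes antagonists with targets, its median gives no direction of Wnt signalling. Lef1, a transcription factor of the Wnt pathway that is active in the dermal papilla, was lower with trimebutine. It read 7.28, 7.92 and 7.61 with trimebutine, 7.89, 8.46 and 8.67 with alprostadil and 8.61, 8.37 and 8.16 with wound vehicle, a difference of -0.74 ± 0.21 with overlapping groups. Rspo2, a secreted enhancer of Wnt signalling, was 0.77 ± 0.24 higher with trimebutine. Of the growth factor ligands 14 of 26 were above 0, with a median of 0.05 that ran over -0.021 (without trimebutine replicate 1) to 0.10 (without alprostadil replicate 1). Among 25 markers of SKPs, dermal papilla and neural crest precursors 18 were above 0 with a median of 0.14, and among 19 of papillary, reticular and adventitial fibroblasts 14 were, with a median of 0.27. Leaving out 1 array moved these medians over 0.12 (without alprostadil replicate 1) to 0.25 (without alprostadil replicate 3) for the precursor list and over 0.13 (without alprostadil replicate 1) to 0.59 (without alprostadil replicate 3) for the fibroblast list. Gpx3, a secreted glutathione peroxidase of the second list, differed by 0.99 ± 0.38. Angpt1, a ligand of the Tie2 receptor that stabilises vessels, read 7.64, 7.57 and 7.64 with trimebutine and 6.10, 6.22 and 7.40 with alprostadil, and Pdgfc differed by -0.58 ± 0.23.

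The receptors through which alprostadil acts were read on the arrays except Ptger1, which is not analysed here. Ptger2, the EP2 receptor, which raises cyclic AMP, read 6.81, 6.27 and 5.71 with trimebutine and 8.16, 6.84 and 6.15 with alprostadil. Ptger4, the EP4 receptor, which does the same, read 8.55, 8.57 and 8.90 with trimebutine and 8.48, 7.26 and 8.63 with alprostadil. The groups overlapped for both receptors, with differences of -0.79 ± 0.48 and 0.55 ± 0.45, and also for Ptger3, the EP3 receptor (0.26 ± 0.20), and Ptgir, the prostacyclin receptor (-0.20 ± 0.39). Single arrays set much of these sizes: Ptger2 differed by -0.23 without alprostadil replicate 1 and by -1.24 without replicate 3, Ptger4 by 0.12 without alprostadil replicate 2, and Ptger3 by 0.13 without trimebutine replicate 2. Ptgir turned to 0.038 without alprostadil replicate 1 and to 0.045 without trimebutine replicate 2. The 95% interval for Ptger4, ran from -0.45 to 1.55 log2 units, so sizeable differences in its level were not detectable with 3 arrays a group.

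Ptgs2 (COX-2), the inducible enzyme of prostaglandin synthesis, read 11.31, 10.79 and 10.37 with trimebutine and 12.02, 11.40 and 10.98 with alprostadil, a difference of -0.64 ± 0.41 with overlapping groups, and of -0.37 without alprostadil replicate 1. In each pair of the same replicate number the alprostadil array was the higher. The labels do not say that these numbers are pairs, and the share of all genes with such an order was not counted. Hpgd, which breaks down prostaglandins, read 9.23, 8.17 and 7.63 with trimebutine, 7.84, 5.71 and 7.81 with alprostadil and 6.46, 6.42 and 6.37 with wound vehicle. The difference between the drugs was 1.22 ± 0.67, and 0.52 without alprostadil replicate 2 and 0.78 without trimebutine replicate 1. Abcc4, a transporter that exports prostaglandins and cyclic AMP, read 7.98, 8.03 and 7.86 with trimebutine and 9.14, 9.72 and 8.28 with alprostadil. Its difference was -1.09 ± 0.52, without overlap, and it read 10.05, 10.19 and 8.07 with wound vehicle. None of the prostaglandin genes passed.

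**Figure D4:**
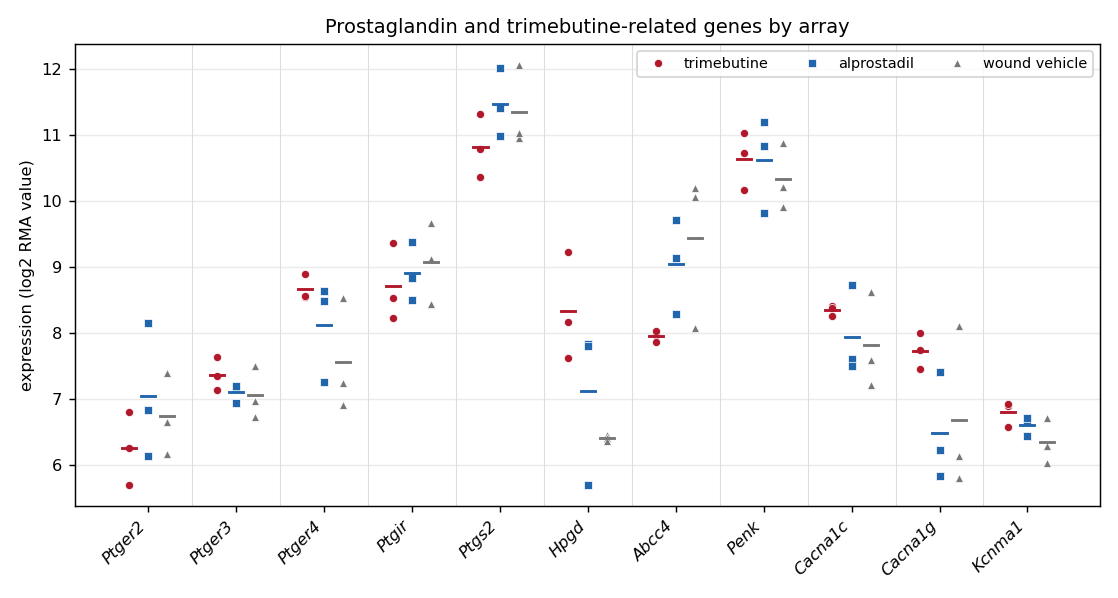
Log2 expression of genes of the prostaglandin pathway and of the opioid peptide and channels related to trimebutine, on each trimebutine (dots), alprostadil (squares) and wound vehicle (triangles) array, with bars at the means of 3 arrays. Of the genes drawn, the drug groups do not overlap in Abcc4 (7.86 to 8.03 with trimebutine, 8.28 to 9.72 with alprostadil) and Cacna1g (7.46 to 8.002 with trimebutine, 5.84 to 7.42 with alprostadil).

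Genes of cyclic AMP signalling and its CREB response showed no common shift between the drugs. Of 35 tested, 18 were above 0 and the median was 0.01 log2 units. The score of the list was 0.00, 0.08 and -0.01 with trimebutine and 0.01, -0.04 and -0.01 with alprostadil. Sik1, a kinase induced by CREB, read 9.51, 9.67 and 9.32 with trimebutine and 9.91, 10.11 and 9.63 with alprostadil, a difference of -0.38 ± 0.15. Pde3b, a phosphodiesterase that degrades cyclic AMP, was 0.63 ± 0.26 higher with trimebutine. Both had overlapping groups. Sik1 was lower on the trimebutine array in each pair of the same replicate number, a pairing that the labels do not state. Immediate early genes and feedback inhibitors of ERK, the kinase downstream of FGF2 and EGF, had 8 of 26 above 0 with a median of -0.14 that ran over -0.25 (without alprostadil replicate 3) to -0.037 (without alprostadil replicate 1) when 1 array was left out, and Spry1, one of these inhibitors, read 8.86, 8.95 and 8.70 with trimebutine and 9.82, 10.36 and 8.83 with alprostadil. Trimebutine replicates 1 and 2 lay above alprostadil replicate 3 there, so the groups overlapped.

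The opioid receptors were dim. Oprm1, Oprd1 and Oprk1, the mu, delta and kappa receptors, read 5.67 to 6.81 with trimebutine and 5.48 to 6.58 with alprostadil, and none was bright enough to be tested. Penk, which encodes the enkephalin peptides, was bright at 10.73, 11.03 and 10.17 with trimebutine and 11.20, 9.81 and 10.83 with alprostadil, a difference of 0.03 ± 0.39. Of 13 tested genes of this list, which also holds calcium and potassium channels, 11 were above 0 and the median was 0.25. Cacna1g, a T-type calcium channel, read 7.46, 8.002 and 7.74 with trimebutine, 6.23, 5.84 and 7.42 with alprostadil and 6.14, 5.81 and 8.10 with wound vehicle, a difference of 1.24 ± 0.66. Cacna1c, the L-type channel of smooth muscle, and Kcnma1, the large-conductance potassium channel, differed by 0.40 ± 0.37 and 0.20 ± 0.19, and none of these passed. Cacna1c ran over 0.18 (without alprostadil replicate 2) to 0.80 (without alprostadil replicate 3).

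Genes of endoplasmic reticulum stress and ATF4, the transcription factor of amino acid stress, were mostly lower with trimebutine. Of 30 tested, 29 had a difference below 0, with a median of -0.50 log2 units, and none had an unadjusted p under 0.05, as 4.42% of all genes did. Asns, which makes asparagine, read 11.79, 11.42 and 11.21 with trimebutine and 11.87, 12.14 and 11.87 with alprostadil, a difference of -0.48 ± 0.25 without overlap. Phgdh, the first enzyme of serine synthesis, read 8.94, 8.20 and 8.15 with trimebutine and 9.17, 9.20 and 8.63 with alprostadil. The score of the list was 0.26, -0.51 and -0.59 with trimebutine and 0.58, 0.45 and -0.28 with alprostadil, so the groups overlapped. In each pair of the same replicate number the trimebutine array was the lower, a pairing that the labels do not state. The median ran over -0.77 (without alprostadil replicate 3) to -0.37 (without alprostadil replicate 1) when 1 array was left out. Replicate 1 was the highest of its group with either drug. Of 21 genes of oxidative stress and metallothioneins 7 were above 0 with a median of -0.09, of 23 genes of hypoxia and glycolysis 9 were above 0 with a median of -0.04, and of 22 genes of sterol and fatty acid synthesis 16 were above 0 with a median of 0.08. These 3 medians depended on single arrays: leaving out 1 moved them over -0.25 (without trimebutine replicate 1) to -0.031 (without alprostadil replicate 1), over -0.13 (without trimebutine replicate 1) to 0.09 (without trimebutine replicate 3) and over -0.24 (without trimebutine replicate 1) to 0.33 (without alprostadil replicate 1), in the order given. Slc2a1, the glucose transporter GLUT1, was bright at 13.15, 12.89 and 12.68 with trimebutine and 13.34, 13.25 and 12.82 with alprostadil, a difference of -0.23 ± 0.18. Acaca, which starts fatty acid synthesis, differed by 0.23 ± 0.15.

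Genes of mitosis did not order the drugs. Of 30 tested, 29 were above 0, but the score was 0.71, 0.12 and 0.17 with trimebutine and 1.06, -0.99 and 0.15 with alprostadil, and none passed. The median of 0.25 was 0.74 without alprostadil replicate 1, -0.27 without replicate 2 and 0.05 without trimebutine replicate 1. Mki67, the proliferation marker Ki-67, read 9.80, 8.97 and 9.19 with trimebutine and 10.64, 7.01 and 9.05 with alprostadil, so that a single alprostadil array set the sign of its difference of 0.42 ± 0.89. Among 27 genes of DNA replication 15 were above 0 with a median of 0.04 that ran over -0.086 (without alprostadil replicate 2) to 0.23 (without alprostadil replicate 1) when 1 array was left out. Mcm2, a subunit of the replicative helicase, had an unadjusted p under 0.05, as 1.92% of all genes did in that direction, and read 9.15, 9.19 and 9.27 with trimebutine and 9.63, 9.49 and 9.36 with alprostadil. Of 21 cell cycle inhibitors and p53 targets 12 were above 0, with a median of 0.04 that ran over -0.059 (without alprostadil replicate 2) to 0.11 (without alprostadil replicate 3). Cdkn1c (p57) was 0.54 ± 0.24 higher with trimebutine, and Mdm2, the p53 target that degrades p53, differed by -0.29 ± 0.13. Neither passed.

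**Figure D5:**
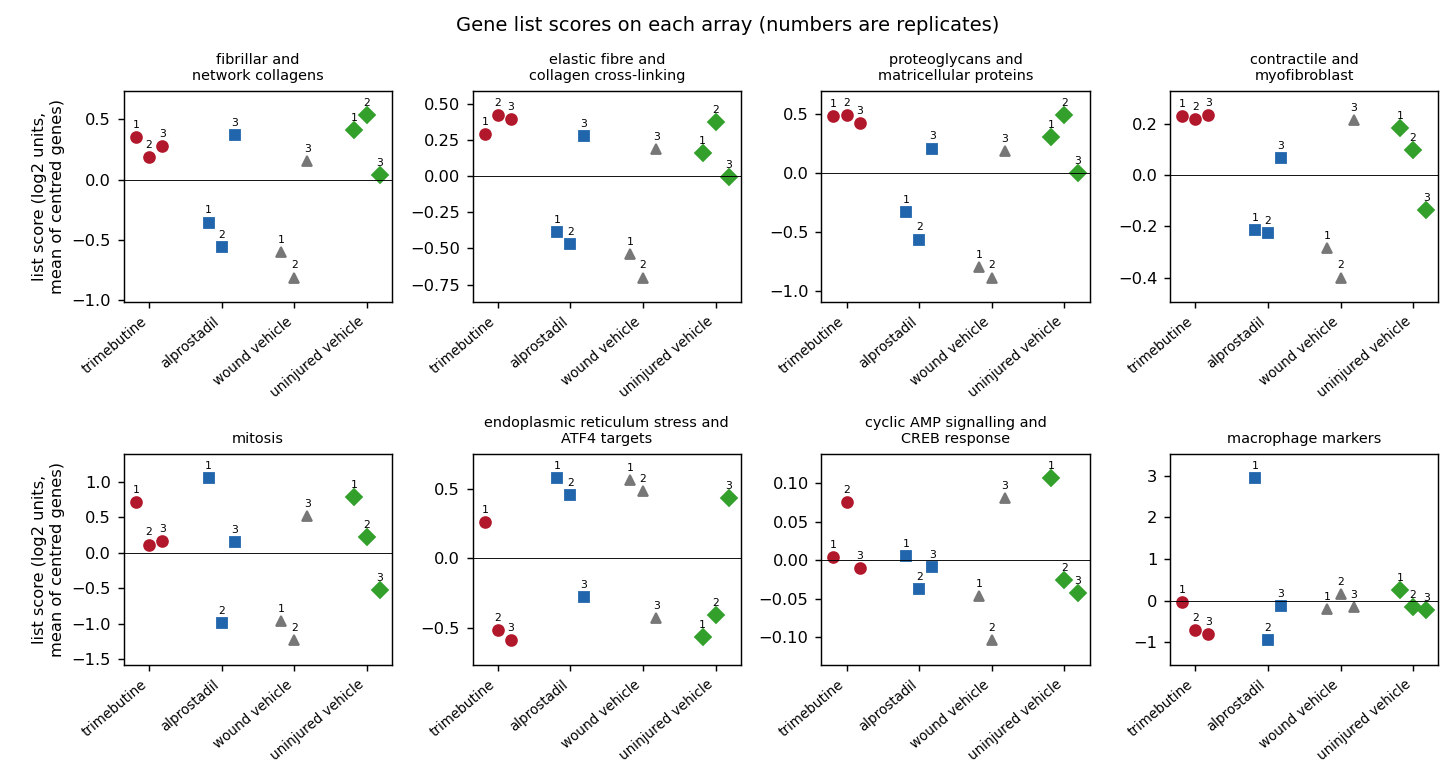
The score of 8 gene lists on each of the 12 arrays, in log2 units (each gene centred on its mean over 12 arrays, then averaged over the list), with trimebutine as dots, alprostadil as squares, wound vehicle as triangles and uninjured vehicle as diamonds. Digits are replicate numbers. In the contractile list trimebutine scored 0.22 to 0.24 and alprostadil -0.23 to 0.07, and alprostadil replicate 1 stands alone in macrophage markers at 2.94.

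Inflammatory genes were evenly divided. Of 32 chemokine, cytokine and NF-kappa-B target genes 16 were above 0, with a median of 0.01 that ran over -0.20 (without alprostadil replicate 2) to 0.13 (without alprostadil replicate 1) when 1 array was left out. Nfkbiz, an inducible regulator of NF-kappa-B, read 9.51, 9.46 and 9.16 with trimebutine and 9.80, 10.07 and 9.90 with alprostadil, a difference of -0.55 ± 0.24. Cxcl12, a chemokine made by dermal fibroblasts, read 11.89, 11.59 and 11.79 with trimebutine and 10.47, 10.24 and 11.78 with alprostadil. Interferon-stimulated genes had 22 of 30 above 0 with a median of 0.06, over -0.042 (without alprostadil replicate 2) to 0.25 (without alprostadil replicate 3), and Ifit3 differed by 0.35 ± 0.15. Among 15 complement genes 10 were above 0 with a median of 0.15, over 0.036 (without trimebutine replicate 1) to 0.35 (without trimebutine replicate 3), and Cd55, which shields cells from complement, differed by 0.81 ± 0.35 without overlap.

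Transcription factors of body position are of interest because dermal cells keep the pattern of their skin site. Of 21 Hox genes 15 were above 0, with a median of 0.18, and 4 had an unadjusted p under 0.05, all higher with trimebutine, beside 2.5% of all genes tested. Hoxc8, a trunk Hox gene, read 10.43, 10.33 and 10.71 with trimebutine and 9.66, 9.77 and 10.44 with alprostadil. Leaving out 1 array moved the median of the Hox list over 0.034 (without alprostadil replicate 1) to 0.28 (without alprostadil replicate 3). Tbx5, the T-box factor that patterns forelimb and chest, read 8.47, 8.24 and 8.22 with trimebutine, 7.36, 7.88 and 7.00 with alprostadil and 8.23, 7.47 and 8.61 with wound vehicle, a difference of 0.89 ± 0.29 without overlap. Alx4, a homeobox factor of limb and skull, differed by 0.68 ± 0.27, also without overlap. Whether the skin of the groups came from the same site is not stated in the labels.

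Cell type markers were compared where they were bright enough to be tested. Of 15 dermal fibroblast markers 14 were above 0 with a median of 0.27, which ran over 0.13 (without alprostadil replicate 1) to 0.67 (without alprostadil replicate 3) when 1 array was left out. Of 8 pericyte and smooth muscle markers 5 were above 0 with a median of 0.09, among 10 tendon, cartilage and bone markers 8 were above 0 with a median of 0.21, which was 0.11 without alprostadil replicate 1, and the 10 keratinocyte, 5 endothelial and 6 adipocyte markers had medians of -0.05, 0.05 and 0.15. The medians were -0.07 for 6 melanocyte, -0.08 for 11 Schwann cell and neural, -0.01 for 9 skeletal muscle and 0.41 for 5 other leukocyte markers. The leukocyte median ran over 0.11 (without trimebutine replicate 1) to 0.78 (without trimebutine replicate 3) when 1 array was left out and was -0.23 without the 3 arrays of lowest array median, and those of the muscle, melanocyte, endothelial and keratinocyte lists, all near 0, changed sign when some single arrays were left out. Vwf (von Willebrand factor) and Cdh1 (E-cadherin) were high on alprostadil replicate 1, at 8.89 and 8.62, against at most 6.72 and 7.11 with trimebutine. Their differences without that array were -0.14 and 0.02. Ednrb, an endothelin receptor of melanocytes and dermal cells, read 8.32, 9.12 and 8.54 with trimebutine and 9.45, 9.92 and 9.95 with alprostadil, a difference of -1.12 ± 0.42. Kit, the receptor of stem cell factor in mast cells and melanocytes, read 8.90, 8.60 and 9.04 with trimebutine and 8.18, 7.85 and 7.77 with alprostadil, a difference of 0.91 ± 0.38. S100b, a calcium-binding protein of Schwann cells, was 0.88 ± 0.38 higher with trimebutine, and Chrna1, the muscle acetylcholine receptor subunit, differed by -1.35 ± 0.49. None of these passed, with an adjusted p of 0.752 each in limma.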

How the data were processed

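RNA of 12 cultures was measured on Affymetrix Mouse Gene 2.0 ST arrays. The deposited table holds log2 values of each probe set. Per the submitters' processing notes, the authors used RMA and oligo (an R package), without versions or settings. RMA corrects the background of each array, brings the arrays to common quantiles and compresses differences of dim genes. Of 41345 probe sets 23521 carry 1 gene symbol in the platform annotation, 1814 several and 16010 none. Only the 23521 were used, the brightest per symbol, which gave 22180 genes. Genes above an array's median on 3 or more of 12 arrays were tested, 13153 in number. Array medians ran over 6.57 to 6.74. Precision is limited by the number of arrays, and p-values measure the spread between replicate samples.

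The model was fitted to all 4 groups together with limma 3.58.1 under R 4.3.3, with 8 residual degrees of freedom and no covariate. P-values are two-sided and Benjamini-Hochberg adjusted over 13153 genes at a threshold of 0.05. Calls were tested on simulated data with independent noise for each gene and array. The simulation did not hold the shared deviations or unequal group spreads of the real arrays, so it does not bear on them. Same-numbered trimebutine and alprostadil arrays deviated together from their group means (r = 0.57, 0.22 and 0.42 for replicates 1, 2 and 3), so the numbers were treated as pairs in an alternative with a replicate block. Differently numbered arrays of the 2 drugs had r from -0.49 to 0.25. Over all 4 groups the numbers matched less well. There 11 of 18 same-numbered pairs had r above 0.1, with a range of -0.64 to 0.62, against 13 of 36 differently numbered pairs. The labels do not say what a number shares. Alternatives were that block, other filters and normalizations, the mean of probe sets, a trended robust variance, array weights, a fit to the 2 drug groups only and leaving out each array. A block within these groups, and leaving out together the 3 arrays with the lowest medians, were added after seeing the data.

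The comparison and the 38 gene lists were chosen with earlier results of these data known. Of 980 list entries 914 matched a gene. Named genes were the 10 of smallest p in each direction without overlap of the arrays (predicted genes left out), the 2 members of each list with the largest moderated t, and 21 fixed genes. Adgre1, Sox2 and the genes of the last part were named after their values were seen. To score a list, each tested member was centred on its mean over 12 arrays and the members were averaged. Motifs were searched in RefSeq promoters, and Python 3.11.15 with matplotlib 3.10.9 drew the figures.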

Additional observations from a re-analysis of the deposited data

How the results depend on the processing

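No alternative other than leaving out 1 array called a gene between trimebutine and alprostadil at an adjusted p of 0.05. Leaving out 1 array at a time gave 0 to 1 genes: Mmp1a without wound vehicle replicate 3 (adjusted p 0.0204) and Epsti1 without alprostadil replicate 2 (adjusted p 0.0263). With a replicate block the count was 0 and the smallest limma adjusted p 0.300, and it was 0 and 0.290 with the block in the drug groups alone. The count of genes at an unadjusted p under 0.05, 581 as reported, was 797 with the replicate block over 4 groups, 1746 with the block in the drug groups alone, 2716 with array weights (47.8% of them higher with trimebutine, against 56.6%), 1092 without the filter on dim genes and 341 without the 3 arrays of lowest median. Leaving out 1 array gave 250 (without trimebutine replicate 3) to 2008 (without alprostadil replicate 3), with 335 without alprostadil replicate 1, 366 without trimebutine replicate 2 and 951 without wound vehicle replicate 3.

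Of 103 named genes, 96 kept the sign of their difference in every alternative. That count was largely set in advance and does not measure how stable the genes are. Genes picked for lack of overlap cannot change sign when 1 array is left out. Most of the others were picked for a large moderated t, and fits without a vehicle array leave the difference unchanged. Over fits leaving out 1 array the difference ranged from -0.039 to 0.610 for Cenpf, from -0.012 to 0.591 for Cdk1, from -0.524 to 1.29 for Mki67 and from -0.372 to 0.322 for Penk, each lowest without alprostadil replicate 2. It ranged from -0.895 to 0.025 for Cdh1, from -0.524 to 0.045 for Ptgir and from -1.66 to 0.089 for Csf1r, with the sign turned without alprostadil replicate 1 (Ptgir 0.0381) and, for Ptgir, also without trimebutine replicate 2 (0.045). Penk was -0.0132 without trimebutine replicate 1 and -0.166 without trimebutine replicate 2, and Csf1r was 0.011 without the 3 arrays of lowest median. The cause of these shifts was not tested.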

Other observations

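Several of the 40 genes with the largest differences between trimebutine and alprostadil belong to the lists above without being among their named members, or to none of them, and are given here as values, chosen after they were seen. Sfrp1, a secreted Wnt antagonist, read 11.36, 11.31 and 12.20 with trimebutine and 9.46, 7.28 and 10.79 with alprostadil. Aoc3 (VAP-1), an amine oxidase of smooth muscle and fibroblasts, read 10.94, 10.44 and 10.61 with trimebutine and 8.63, 6.26 and 9.95 with alprostadil, and Scn7a, an atypical sodium channel, read 9.81, 9.57 and 9.93 with trimebutine and 7.37, 6.23 and 8.78 with alprostadil. In each of these 3 genes every trimebutine array lay above every alprostadil array, and alprostadil replicate 2 was the lowest of the 6. With wound vehicle Sfrp1 read 7.30, 7.01 and 11.21, Aoc3 7.11, 5.82 and 10.24, and Scn7a 6.13, 6.42 and 8.80. On alprostadil replicate 2 Aoc3 and Scn7a lay below the array median of 6.72, so the sizes of their differences are uncertain. Cilp, a cartilage matrix protein, read 12.39, 12.24 and 12.66 with trimebutine and 10.02, 10.08 and 11.79 with alprostadil, a difference of 1.80 ± 0.72. Aspn (asporin), a small leucine-rich proteoglycan, differed by 2.17 ± 1.01 with overlapping groups, since alprostadil replicate 3 read 10.07 and trimebutine replicate 1 read 9.88.

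On the lower side, Cdh6 (K-cadherin) read 9.75, 8.88 and 8.04 with trimebutine and 11.19, 10.52 and 10.39 with alprostadil, a difference of -1.81 ± 0.56, and Ostn (osteocrin), a secreted peptide of muscle and bone, read 7.47, 6.84 and 6.55 with trimebutine and 9.67, 9.51 and 7.59 with alprostadil. Ccl3, Aoah and Clec4e, genes of myeloid cells, were higher on alprostadil replicate 1 (11.74, 10.94 and 12.10) than on any trimebutine array, where they reached 7.17, 6.18 and 7.69. On the other alprostadil arrays they read 5.90 to 7.52. Many of the largest differences on the lower side had this form: Ms4a6d, Mpeg1, Fcer1g, Tyrobp and Lyz2 were also highest on alprostadil replicate 1 among the 12 arrays. Txnip, a glucose-responsive regulator of thioredoxin, varied widely within trimebutine, at 7.72, 8.28 and 11.48, against 8.54, 5.87 and 6.89 with alprostadil. None of these genes had an adjusted p at or under 0.05 in limma, where 581 of the 13153 genes had an unadjusted p under 0.05.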
